A study of Homo sapiens with 44 samples.

Results

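The enzymes of serine synthesis and of the folate one-carbon pathway were followed across 4 human acute myeloid leukemia (AML) cell lines in which RNA interference targeted GSK3A or GSK3B, which encode the paralogous kinases GSK-3 alpha and GSK-3 beta. The members were 9 genes chosen by name: PHGDH, PSAT1, PSPH, SHMT1, SHMT2, MTHFD2, MTHFD1, MTHFD1L and TYMS. Every probe set that names 1 of them alone was taken, which gave 13 probe sets for 8 of the genes, out of 19724 single-gene probe sets and 12165 genes. MTHFD1L was not analysed here. The group was proposed because MTHFD2 was lower with both GSK3A hairpins, so the values of these genes with the GSK3A hairpins against control, over all lines and in each line, are a description with no test.

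RNA was measured on Affymetrix arrays from the lines MOLM-14, U937, HL-60 and THP-1, established lines of myeloid leukemia or lymphoma cells. Each line was infected with a scrambled hairpin (shControl, 3 arrays), with a hairpin against GSK3A (shGSK3A_5 or shGSK3A_6, 2 arrays each) or with a hairpin against GSK3B (shGSK3B_1 or shGSK3B_2, 2 arrays each), which makes 11 arrays per line and 44 in all. All groups carry a hairpin and went through the same puromycin selection, at 1 µg/mL from 48 h after infection, with RNA taken 48 h later, and uninfected cells were not analysed here. The labels report that knockdown was checked by western blot. They call the replicates biological without saying whether infections were separate, so the spread between arrays may in part be technical. With its own hairpins the GSK3B transcript differed from control by -1.56 ± 0.05 (SE) on the log2 scale (limma, adjusted p = 8.12e-19), and the GSK3A transcript by -0.09 ± 0.03 with its own (adjusted p = 0.0176). Per the labels, arrays sat in plate columns 1 to 11, and columns 1 to 6 (control replicates 1 and 2, hairpin replicate 1) stood apart from columns 7 to 11 (control replicate 3, hairpin replicate 2) in MOLM-14 and U937. Of 8 measured myeloid markers, 4 to 6 had a mean above the upper quartile of the arrays in every line and group, and the summed intensity of 10 markers of lymphoid, erythroid, epithelial, stromal and platelet cells stayed between 91.7 and 118 in all groups, with none of them above that quartile. Against this, 1 to 3 of the 8 myeloid markers had a mean below the array median, among them CSF1R and MPO in U937 controls (11.6 and 11.4).

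Cells make serine from the glycolytic intermediate 3-phosphoglycerate through PHGDH, PSAT1 and PSPH in turn. The serine hydroxymethyltransferases, SHMT2 in mitochondria and SHMT1 in the cytosol, then pass a carbon of serine to tetrahydrofolate and release glycine. In mitochondria MTHFD2 and MTHFD1L oxidise that carbon to formate, the cytosolic enzyme MTHFD1 takes formate up again, and the carbon goes into purines or, through TYMS, into thymidylate. Proliferating leukemia cells are known to rely on this route, and MTHFD2 is known for being high in tumours and low in most adult tissues. Several of these genes are textbook targets of the stress factor ATF4, and TYMS is a textbook E2F target.

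Promoter windows of RefSeq (GRCh38.p14), from 250 bases before to 50 after the transcription start, matched 6 of the 8 measured genes; SHMT2 and PSPH had no entry. Those of 4 genes whose levels the results turn on are shown, each as the 250 bases before the start, 5′ to 3′. Capitals mark CCAAT in MTHFD2, PHGDH and PSAT1, and the E2F match GCGGGAAA in TYMS.
MTHFD2, chr2:74198365-74198614, plus strand: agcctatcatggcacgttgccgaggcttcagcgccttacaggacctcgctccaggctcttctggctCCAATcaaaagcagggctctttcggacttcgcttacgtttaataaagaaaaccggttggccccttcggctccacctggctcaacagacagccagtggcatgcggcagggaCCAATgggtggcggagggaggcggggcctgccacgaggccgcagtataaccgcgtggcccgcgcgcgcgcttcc
PHGDH, chr1:119711684-119711933, plus strand: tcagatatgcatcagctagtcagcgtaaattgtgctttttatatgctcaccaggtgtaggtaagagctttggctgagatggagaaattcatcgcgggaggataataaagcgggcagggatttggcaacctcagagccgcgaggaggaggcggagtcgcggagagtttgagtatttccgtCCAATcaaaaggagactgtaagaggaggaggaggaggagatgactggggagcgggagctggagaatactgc
PSAT1, chr9:78296875-78297124, plus strand: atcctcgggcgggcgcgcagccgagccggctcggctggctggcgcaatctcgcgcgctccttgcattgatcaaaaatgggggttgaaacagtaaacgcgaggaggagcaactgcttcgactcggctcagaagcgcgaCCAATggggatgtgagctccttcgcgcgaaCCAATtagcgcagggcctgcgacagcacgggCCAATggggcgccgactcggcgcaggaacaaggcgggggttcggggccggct
TYMS, chr18:657403-657652, plus strand: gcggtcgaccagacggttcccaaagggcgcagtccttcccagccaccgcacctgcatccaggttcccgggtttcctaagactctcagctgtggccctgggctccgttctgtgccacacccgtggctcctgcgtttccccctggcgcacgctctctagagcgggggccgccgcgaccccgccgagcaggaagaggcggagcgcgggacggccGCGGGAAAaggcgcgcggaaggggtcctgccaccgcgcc
The letters CCAAT (or ATTGG, the same box on the other strand) were found in 5 of the 6 windows, against 34.6% of all 35116 windows of that length. They began 184 and 74 bases before the start in MTHFD2, 71 bases before it in PHGDH, and 113, 83 and 52 bases before it in PSAT1. MTHFD1 and SHMT1 also held the box, and TYMS did not. The ATF4 element TGATGNAA, present in 3.62% of windows on either strand, was in none of the 6. The E2F element TTTNNCGC, present in 6.89% of windows, was found in TYMS and in no other of the 6, beginning 39 bases before the start. The E-box CACGTG, present in 7.26%, was found in MTHFD1 and in no other of the 6, 15 bases before the start. These matches describe the letters of a short window and say nothing about binding.

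MTHFD2, the mitochondrial methylenetetrahydrofolate dehydrogenase and cyclohydrolase, was lower in every array with a GSK3A hairpin than in any control array of the same line. In HL-60 its deposited intensity was 1509, 1478 and 1381 in the control arrays, 554 and 513 with hairpin shGSK3A_5, and 754 and 727 with shGSK3A_6. In THP-1 the controls read 1175, 1214 and 1162, shGSK3A_5 gave 677 and 684, and shGSK3A_6 gave 978 and 1010.2. These lines keep a gap between the hairpins, with shGSK3A_5 the lower. In MOLM-14 the controls read 1784, 1778 and 1685, and both hairpins fell in one narrow band, at 653 and 768 with shGSK3A_5 and at 687 and 676 with shGSK3A_6. In U937 the controls spread more widely, at 962, 1063 and 1435, against 525 and 765 with shGSK3A_5 and 616 and 821 with shGSK3A_6. Within U937 the higher array of each pair came from plate columns 7 to 11, and within each set of columns the GSK3A arrays still lay below the controls. The 16 GSK3A arrays below all controls of their line compare with 0.222% of all genes whose GSK3A arrays lay below the controls in all 4 lines; the genes were chosen on this contrast, so nothing is read from that share.

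**Figure D1:**
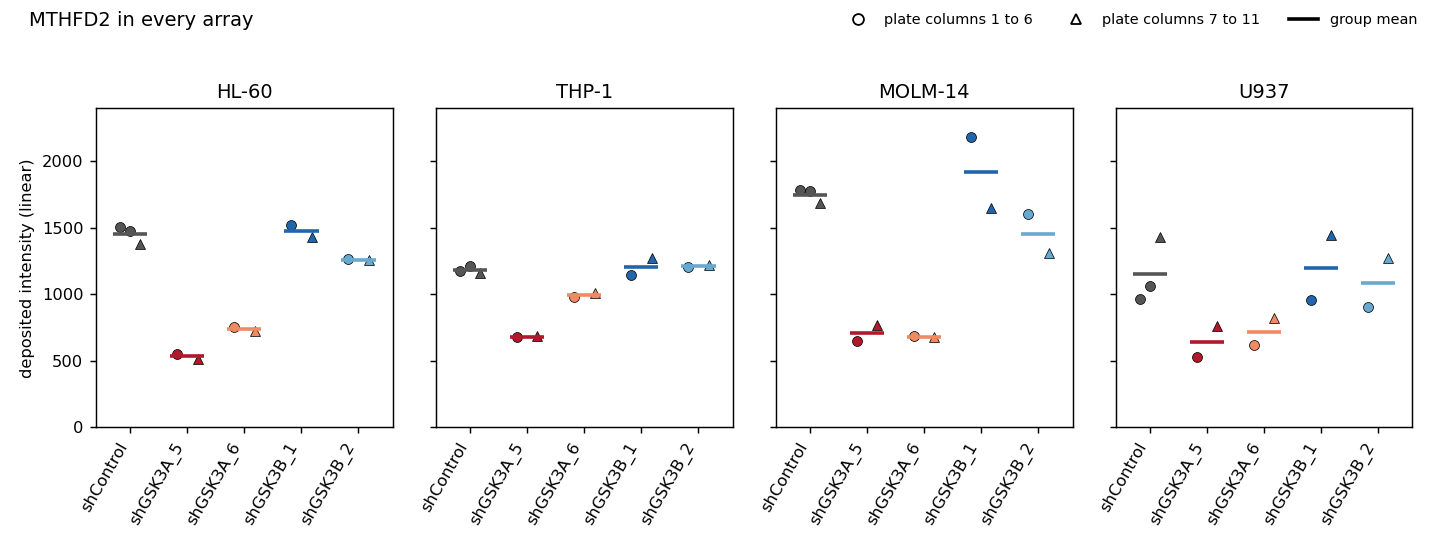
Deposited MTHFD2 intensity (linear scale) of each of the 44 arrays, by cell line and hairpin. Circles are arrays of plate columns 1 to 6, triangles arrays of columns 7 to 11, and bars are group means (3 control arrays, 2 arrays per hairpin). The shGSK3A_5 and shGSK3A_6 arrays lie between 513 and 1010.2, below all controls of their line, and the shGSK3B arrays overlap the controls.

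Differences were taken on log2(value + 16) after quantile normalization and come with the standard error of a limma fit over all genes. Averaged over the 4 lines, MTHFD2 with the GSK3A hairpins differed from control by -0.92 ± 0.07 (SE, n = 16 arrays against 12), a 1.89-fold lower level. It was deepest in MOLM-14, at -1.26 ± 0.14, and in HL-60, at -1.16 ± 0.14, followed by U937 at -0.73 ± 0.14 and THP-1 at -0.55 ± 0.14. In percent of the control mean, the deposited level ranged from 36.6% (shGSK3A_5 in HL-60) to 84.0% (shGSK3A_6 in THP-1). In these bulk samples, fewer cells with MTHFD2 RNA and less of it per cell cannot be told apart. The value over the lines was -0.94 with the plate columns as a block, -0.97 in columns 1 to 6 and -0.90 in columns 7 to 11. Control replicates 1 and 2 both sat in columns 1 to 6, so a difference that ignores the columns can carry part of their split. Within U937 the MTHFD2 difference was -0.78 in columns 1 to 6 and -0.85 in columns 7 to 11.

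Whether MTHFD2 differed between the hairpins of GSK3A was tested, since that difference uses no control array. The choice of MTHFD2 rested on its fall with both hairpins and so used these same GSK3A arrays. The p-values of this difference are therefore not independent of that choice. It was lower with shGSK3A_5 than with shGSK3A_6, by a log2 difference of -0.29 ± 0.09 (limma, adjusted p = 0.0321), and it was the 1 member of 8 that passed, against 16.8% of all genes in either direction and 8.19% in this one. The difference was -0.55 in THP-1, -0.49 in HL-60, -0.16 in U937 and 0.03 in MOLM-14, and no single line passed alone. The MTHFD2 difference passed more clearly with the plate columns as a block (limma, adjusted p = 7.01e-06). It did not pass within columns 1 to 6 (-0.33, adjusted p = 0.187) or within columns 7 to 11 (-0.25, adjusted p = 0.291). Those fits hold fewer arrays and use line plus hairpin, so variation of the difference between lines enters their error. The cause of the lost call was not tested. The call is lost with cyclic loess (-0.27, adjusted p = 0.0533), without HL-60 (-0.22, adjusted p = 0.33), without THP-1 (-0.21, adjusted p = 0.363), and without any 1 of 10 single arrays, with adjusted p from 0.052 to 0.119. MTHFD1 differed between these hairpins by -0.11 (adjusted p = 0.127; 0.00792 with the plate columns as a block).

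With the hairpins against GSK3B, MTHFD2 arrays overlapped the controls in every line. In HL-60 the GSK3B arrays read 1525 and 1429 with shGSK3B_1 and 1268 and 1257 with shGSK3B_2. In MOLM-14 they read 2187 and 1650.3 with shGSK3B_1 and 1601 and 1314 with shGSK3B_2. The shGSK3B_2 arrays of both lines lay below the controls, as did 5 of the 8 shGSK3B_2 arrays over all lines and 3 of the 8 shGSK3B_1 arrays. In THP-1 they read 1143 and 1275 with shGSK3B_1 and 1204 and 1222 with shGSK3B_2, and in U937 958 and 1443 against 903 and 1272. The mean difference of the GSK3B arrays from control over the lines was -0.02 (95% interval -0.17 to 0.13; limma, adjusted p = 0.958). None of the 8 members passed the test with the GSK3B hairpins (0 of 8, also 0 at an unadjusted p under 0.05 and in every one of the 16 alternative settings), against 3.32% of all genes. The GSK3B and GSK3A comparisons share the control arrays. No member passed the test that its GSK3B difference varied between the lines (0 of 8, 0 at an unadjusted p under 0.05, limma F-test), against 0.214% of all genes.

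**Figure D2:**
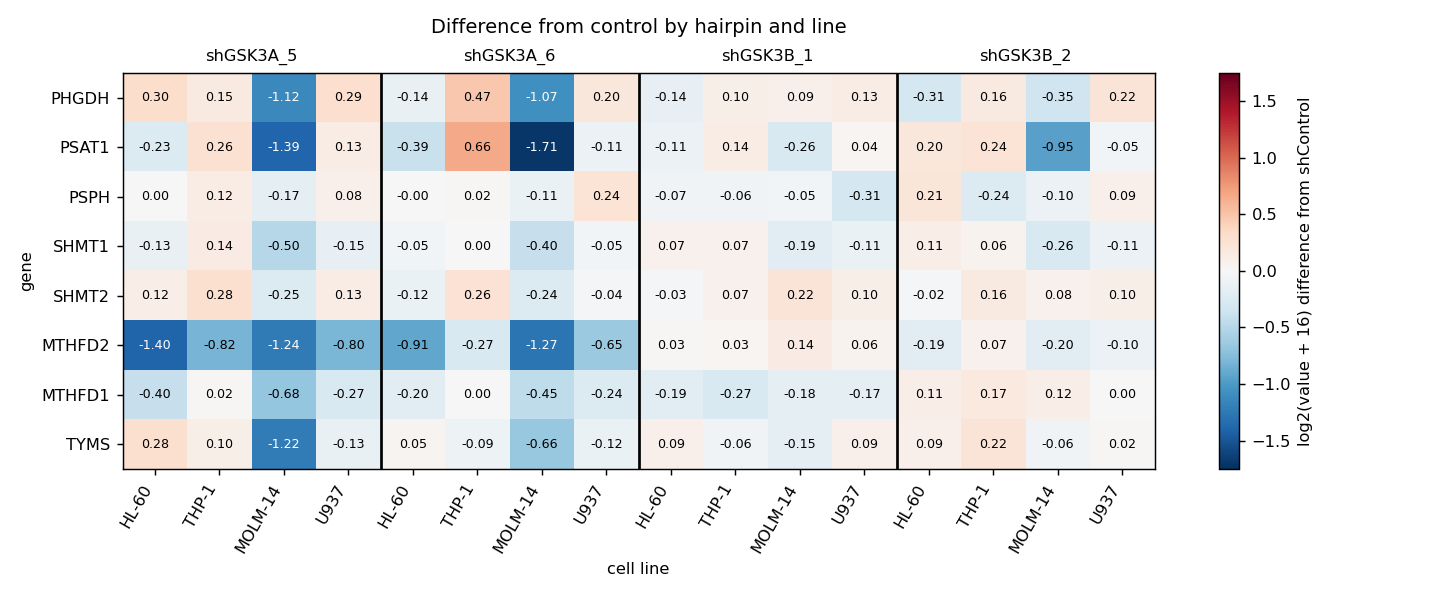
Difference from shControl on the log2(value + 16) scale for the 8 measured genes (rows) by hairpin and cell line (columns), with blue for lower and red for higher. MTHFD2 is blue under both GSK3A hairpins in all lines, from -1.40 to -0.27, while PHGDH, PSAT1 and TYMS are strongly blue under the GSK3A hairpins in MOLM-14.

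MTHFD1, the cytosolic trifunctional enzyme that activates formate, was lower with the GSK3A hairpins in MOLM-14, HL-60 and U937 and overlapped control in THP-1. In MOLM-14 the controls read 799, 875 and 852, against 471 and 577 with shGSK3A_5 and 577 and 641 with shGSK3A_6. In HL-60 the controls read 654, 641 and 680.0, against 497 and 497 with shGSK3A_5 and 579 and 559 with shGSK3A_6. In U937 they read 1039, 1019 and 929, against 862 and 759.9 with shGSK3A_5 and 918 and 747 with shGSK3A_6. GSK3A and control arrays did not overlap in these 3 lines. In THP-1 they did, at 540.5, 506 and 512 in the controls and between 478 and 565 with GSK3A hairpins.

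The log2 difference of MTHFD1 was deepest in MOLM-14, at -0.56 ± 0.07. It was -0.30 ± 0.07 in HL-60, -0.25 ± 0.07 in U937 and 0.01 ± 0.07 in THP-1. In MOLM-14 it was -0.67 within columns 1 to 6 and -0.47 within columns 7 to 11, and in THP-1 -0.04 and 0.06.

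MTHFD1 was also the member that separated the GSK3B hairpins. In THP-1 it read 427 and 429 with shGSK3B_1 and 569 and 591 with shGSK3B_2. In HL-60 it read 551 and 603 with shGSK3B_1 and 706 and 719.9 with shGSK3B_2, and in MOLM-14 689.9 and 808 against 852 and 940.4. The shGSK3B_1 arrays lay below the shGSK3B_2 arrays in all 4 lines, with 899 and 847 against 1019 and 954 in U937. The difference of 0.30 ± 0.05 was positive in each line, from 0.18 in U937 to 0.44 in THP-1 (limma over the lines, adjusted p = 5.8e-05), and held as each single array was left out. It was the 1 member of 8 that passed, against 11% of all genes in either direction (5.72% higher with shGSK3B_2, 5.27% lower), and within columns 1 to 6 it was 0.32 (adjusted p = 0.0772) and within columns 7 to 11 0.28 (adjusted p = 0.173). Against control, MTHFD1 fell with shGSK3B_1 by 0.20 (limma, adjusted p = 0.00474; 2.19% of all genes fell with this hairpin) and differed by 0.10 with shGSK3B_2 (adjusted p = 0.22). MTHFD2 differed between the GSK3B hairpins by -0.17 (adjusted p = 0.329; 0.00447 with the plate columns as a block).

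PHGDH, the first enzyme of serine synthesis, was lower with the GSK3A hairpins in MOLM-14 and higher in THP-1. In MOLM-14 it read 355, 339 and 235 in the controls, against 123, 134, 133.3 and 136 with GSK3A hairpins and 407, 264, 295 and 188 with GSK3B hairpins. The GSK3A arrays of MOLM-14 lay below every other array of the line. In THP-1 PHGDH read 427, 425 and 414 in the controls, 471 and 477 with shGSK3A_5 and 582 and 600.1 with shGSK3A_6, all above the controls. The GSK3B arrays of THP-1 also lay above the controls, at 435, 475, 474 and 472 (as in 3.89% of all genes), and those of HL-60 lay below theirs, at 101, 104, 84.4 and 94.7 (4.63%). In U937 its level split by plate columns, at 325 to 433 in columns 1 to 6 and at 606 to 661 in columns 7 to 11, whatever the hairpin. In HL-60 it was low throughout, at 111, 113 and 119 in the controls, 151 and 144 with shGSK3A_5, and 105 and 103 with shGSK3A_6.

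On the log2 scale the difference of PHGDH with GSK3A hairpins was -1.10 ± 0.23 in MOLM-14 and 0.31 ± 0.23, 0.24 ± 0.23 and 0.08 ± 0.23 in THP-1, U937 and HL-60. In MOLM-14 the difference was -1.31 in columns 1 to 6 and -0.70 in columns 7 to 11. For U937 it was 0.27 in columns 1 to 6 and -0.11 in columns 7 to 11.

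PSAT1, the aminotransferase of the second step, had the widest spread of the members within a group. In MOLM-14 it read 509 and 496 in the controls of columns 1 to 6 and 106 in the control of columns 7 to 11. The GSK3A arrays of MOLM-14 read 148 and 127 in columns 1 to 6 and 74.1 and 52.0 in columns 7 to 11. The GSK3B arrays showed the same split between columns, at 623 and 469 against 98.2 and 42.9. Within columns 1 to 6 the GSK3A difference in MOLM-14 was -1.74, with GSK3B at 0.09, whereas within columns 7 to 11 GSK3A at -0.66 and GSK3B at -0.60 had like values. Averaged over the constructs, PSAT1 in columns 7 to 11 differed from columns 1 to 6 by -1.93 in MOLM-14 and by 0.59 in U937 on the log2 scale.

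In THP-1, PSAT1 was higher with the GSK3A hairpins, at 267 and 264 with shGSK3A_5 and 357 and 346 with shGSK3A_6, against 233, 223 and 198 in the controls. The GSK3B arrays of THP-1 were above the controls too, at 241, 238, 256 and 259. HL-60 and U937 arrays overlapped between GSK3A hairpins and control. PSPH, the phosphatase that completes serine, overlapped control with GSK3A hairpins in every line on its brighter probe set, with log2 differences from -0.14 ± 0.20 in MOLM-14 to 0.16 ± 0.20 in U937. Its second probe set read otherwise: in THP-1 the GSK3A arrays lay at 132 to 173, above the controls at 107 to 113 (136% of the control mean), and in MOLM-14 their mean was 74.4% of control, with overlap.

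**Figure D3:**
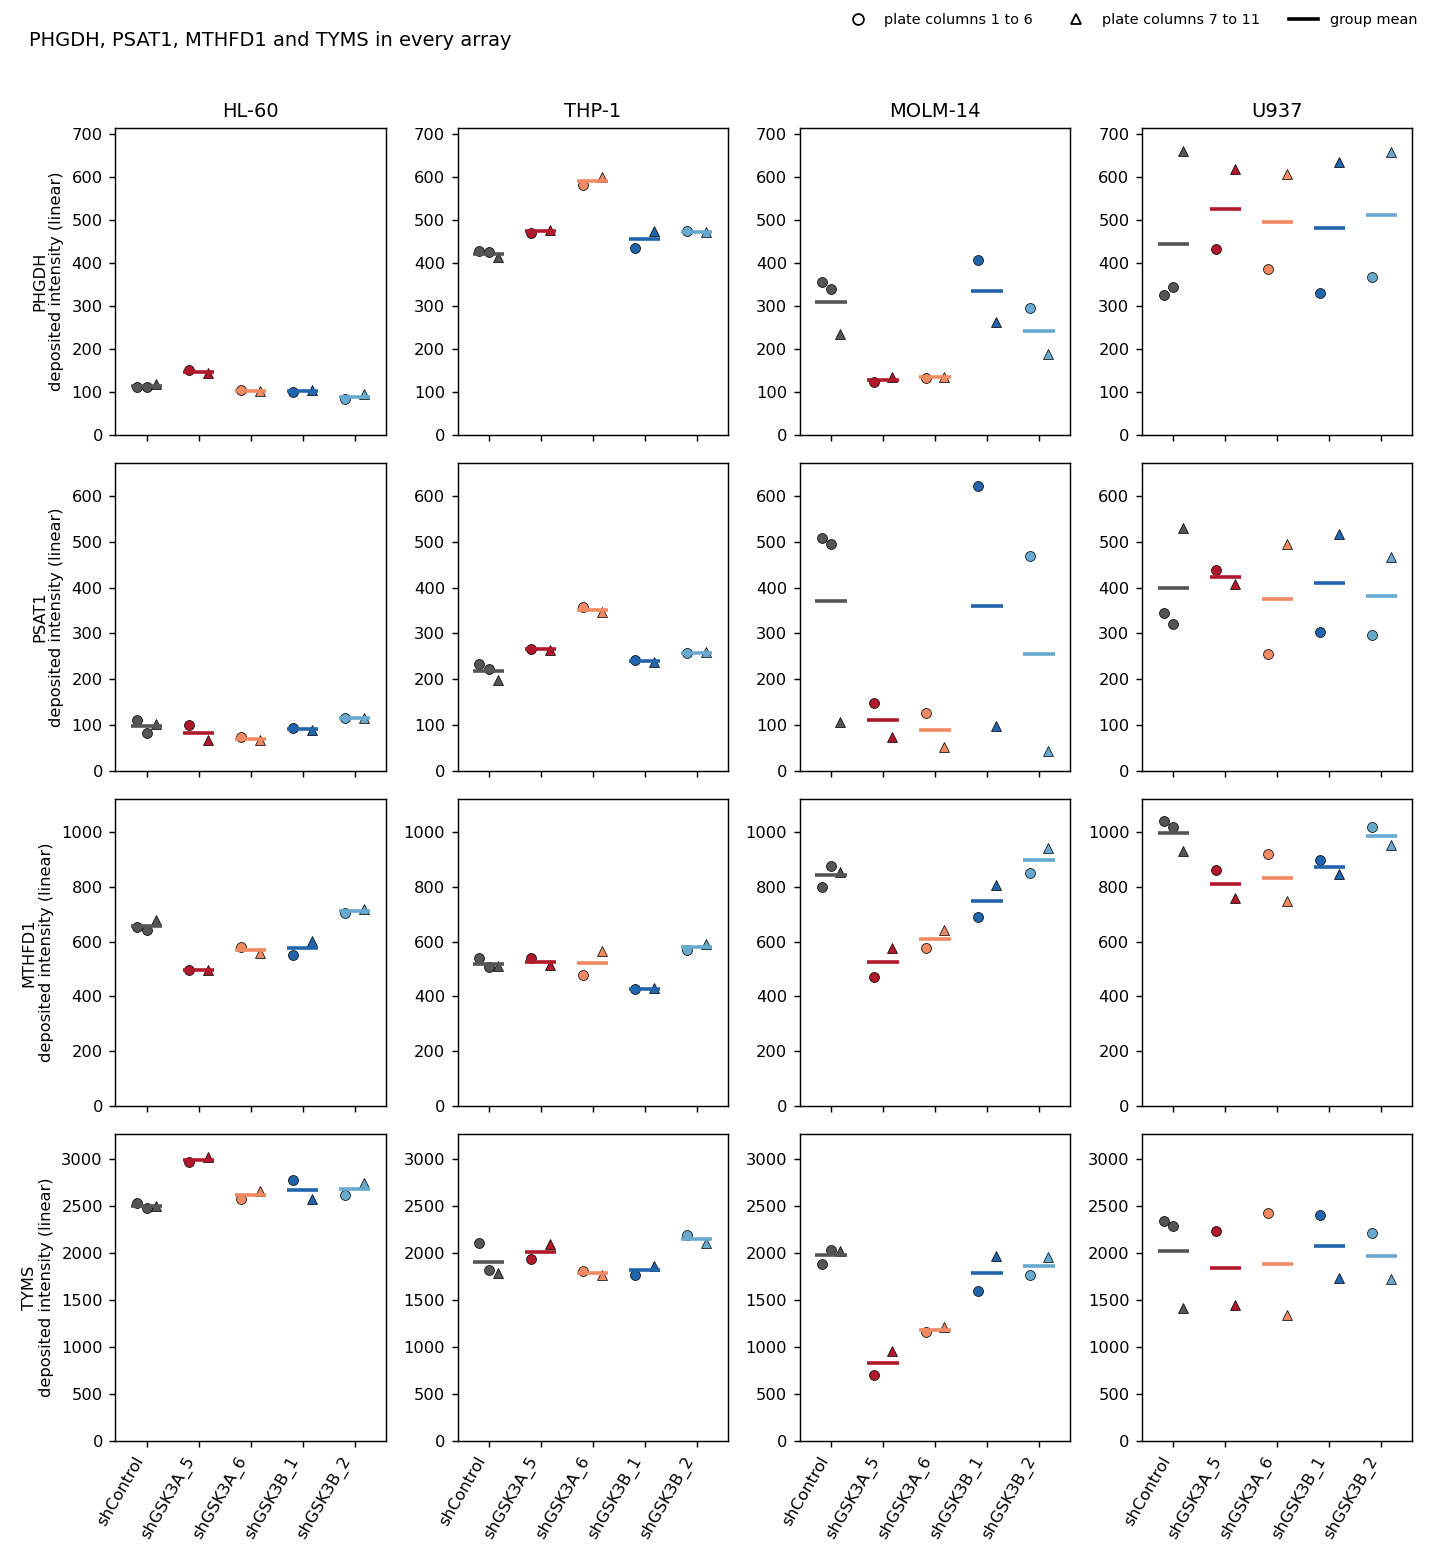
Deposited intensity (linear scale) of PHGDH, PSAT1, MTHFD1 and TYMS in each array by cell line (columns of panels) and hairpin, with circles for plate columns 1 to 6, triangles for columns 7 to 11 and bars for group means. In MOLM-14 the GSK3A arrays of PHGDH, MTHFD1 and TYMS lie below all controls, and PSAT1 splits by plate columns, with all 5 arrays of columns 7 to 11 at 106 or less.

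The hydroxymethyltransferases had smaller differences. SHMT2 was higher in THP-1 with GSK3A hairpins, at 1739, 1645, 1692 and 1616 against 1333, 1347 and 1438 in the controls. In MOLM-14 it read 1997, 2459, 2063 and 2275 with GSK3A hairpins, against 2702, 2835 and 2506. Its log2 difference was -0.24 ± 0.10 in MOLM-14 against 0.27 ± 0.10 in THP-1. The other 2 probe sets of SHMT2 were also above control in THP-1, at 119% and 139% of it, and below it in MOLM-14, with the lower at 71.0%. SHMT1, the cytosolic form, was dim, and its differences on this scale are understated. It lay at 14.5 to 56.9 against an array median of 18.953 to 22.884. SHMT1 read 18.5, 15.5, 22.2 and 16.6 with GSK3A hairpins in MOLM-14 against 32.1, 31.8 and 26.8 in the controls. The GSK3B arrays of MOLM-14 were below the SHMT1 controls as well, at 22.8, 26.4, 25.2 and 20.7 (as in 2.79% of all genes).

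TYMS, thymidylate synthase, was lower with the GSK3A hairpins in MOLM-14, with no overlap. There the controls read 1880.0, 2038 and 2018, against 702 and 956 with shGSK3A_5 and 1161 and 1212 with shGSK3A_6. In HL-60 every GSK3A array lay above the controls, at 2965 and 3026 with shGSK3A_5 and 2576 and 2665 with shGSK3A_6, against 2529, 2479.9 and 2499. The GSK3B arrays of HL-60 also lay above the controls, at 2781, 2572, 2622 and 2746 (as in 4.37% of all genes). In U937 TYMS split by plate columns, at 2216 to 2425 in columns 1 to 6 and 1338 to 1732 in columns 7 to 11. The log2 difference of TYMS was -0.94 ± 0.17 in MOLM-14, -0.12 ± 0.17 in U937, 0.00 ± 0.17 in THP-1 and 0.17 ± 0.17 in HL-60. In MOLM-14 the TYMS difference was -1.08 within columns 1 to 6 and -0.80 within columns 7 to 11. For U937 it was 0.02 within columns 1 to 6 and -0.04 within columns 7 to 11. Of a list of 23 S phase genes, the median GSK3A difference was -1.02 in MOLM-14, -0.17 in U937, 0.01 in THP-1 and -0.04 in HL-60, against a median of all genes of 0.01 or less in size in each line. The part of the S phase genes in the TYMS values was not tested.

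By line, on the normalized values, the GSK3A arrays lay below all controls for 5 members in MOLM-14 (MTHFD2, MTHFD1, SHMT1, PHGDH and TYMS; 8.02% of all genes), for MTHFD2 and MTHFD1 in HL-60 (10.2%) and in U937 (5.09%), and for MTHFD2 in THP-1 (6.14%). They lay above all controls for SHMT2, PHGDH and PSAT1 in THP-1 (7.04% of all genes) and for TYMS in HL-60 (9.93%). In MOLM-14 the GSK3A arrays of SHMT2 were below all controls in deposited intensity but overlapped them after normalization. The GSK3A contrast chose the members, so nothing is read from these counts.

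The control arrays gave the level of each gene in each line with the scrambled hairpin, which the choice of members did not use. Serine synthesis genes were lowest in HL-60. Of all genes, 49.8% differed in control level between HL-60 and THP-1, 41.2% between HL-60 and MOLM-14, 44.1% between HL-60 and U937, 42.9% between THP-1 and MOLM-14, 48.2% between THP-1 and U937 and 42.7% between MOLM-14 and U937. PSPH read 36.8, 25.4 and 28.3 in HL-60 controls and 379, 393 and 396 in those of MOLM-14. U937 controls read 199.5, 213 and 304, and THP-1 controls 221, 230.1 and 218, so no array of another line came near HL-60. On the log2 scale PSPH in HL-60 differed by -3.06 from MOLM-14, by -2.33 from U937 and by -2.27 from THP-1 (limma, adjusted p = 1.73e-12, 3.98e-10 and 4.16e-10). PHGDH had the same low place in HL-60, with differences of -1.72 from THP-1, -1.71 from U937 and -1.30 from MOLM-14 (adjusted p = 8.64e-07, 1.39e-06 and 7.46e-05), and the differences among its other 3 lines did not pass. That fit takes no account of the plate columns, by which PHGDH split: in columns 1 to 6 THP-1 controls (427 and 425) lay above those of MOLM-14 (355 and 339) and U937 (325 and 345), and in columns 7 to 11 the lone controls read 414, 235 and 661. PSAT1 in HL-60 differed by -1.49 from MOLM-14 and by -1.79 from U937 (limma, adjusted p = 0.0413 and 0.0133), and no other pair of lines passed. It split by columns too. In columns 1 to 6 its control mean was 96.5 in HL-60, 503 in MOLM-14 and 333 in U937. The lone controls of columns 7 to 11 read 102, 106 and 530, so HL-60 and MOLM-14 were alike there.

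The folate enzymes had other orders, again from the fit without the plate columns. SHMT2 was highest in MOLM-14, then U937, with HL-60 and THP-1 lowest and not different from each other (adjusted p = 0.874); its other pairs of lines all passed (largest adjusted p = 0.00446). MTHFD1 was highest in U937 and MOLM-14, whose difference of -0.16 (MOLM-14 minus U937) did not pass (adjusted p = 0.107), followed by HL-60 and then THP-1. MTHFD2 was highest in MOLM-14, followed by HL-60, THP-1 and U937, and of its neighbours in that order no pair passed, while THP-1 differed from MOLM-14 by -0.54 (adjusted p = 0.00519) and MOLM-14 from U937 by 0.63 (adjusted p = 0.00124). The last place of U937 held in columns 1 to 6, where its MTHFD2 controls averaged 1012. In columns 7 to 11 its lone control read 1435, above those of HL-60 (1381) and THP-1 (1162) and below that of MOLM-14 (1685). SHMT1 was highest in U937, then MOLM-14, HL-60 and THP-1, and HL-60 differed from U937 by -0.69 (adjusted p = 0.002). Between all lines, 7 of the 8 members differed in control level, against 67.8% of all genes, and TYMS did not pass (limma F-test, adjusted p = 0.222). With the plate columns as a block the same F-test gave TYMS an adjusted p of 0.00076, but that fit compares the lines at the level of columns 1 to 6. The TYMS controls of U937 averaged 2319 in columns 1 to 6, and the lone control of columns 7 to 11 read 1421. The call for PSAT1 (adjusted p = 0.0388) is lost without any 1 of 7 control arrays, among them HL-60 control replicate 2 (adjusted p = 0.127).

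**Figure D4:**
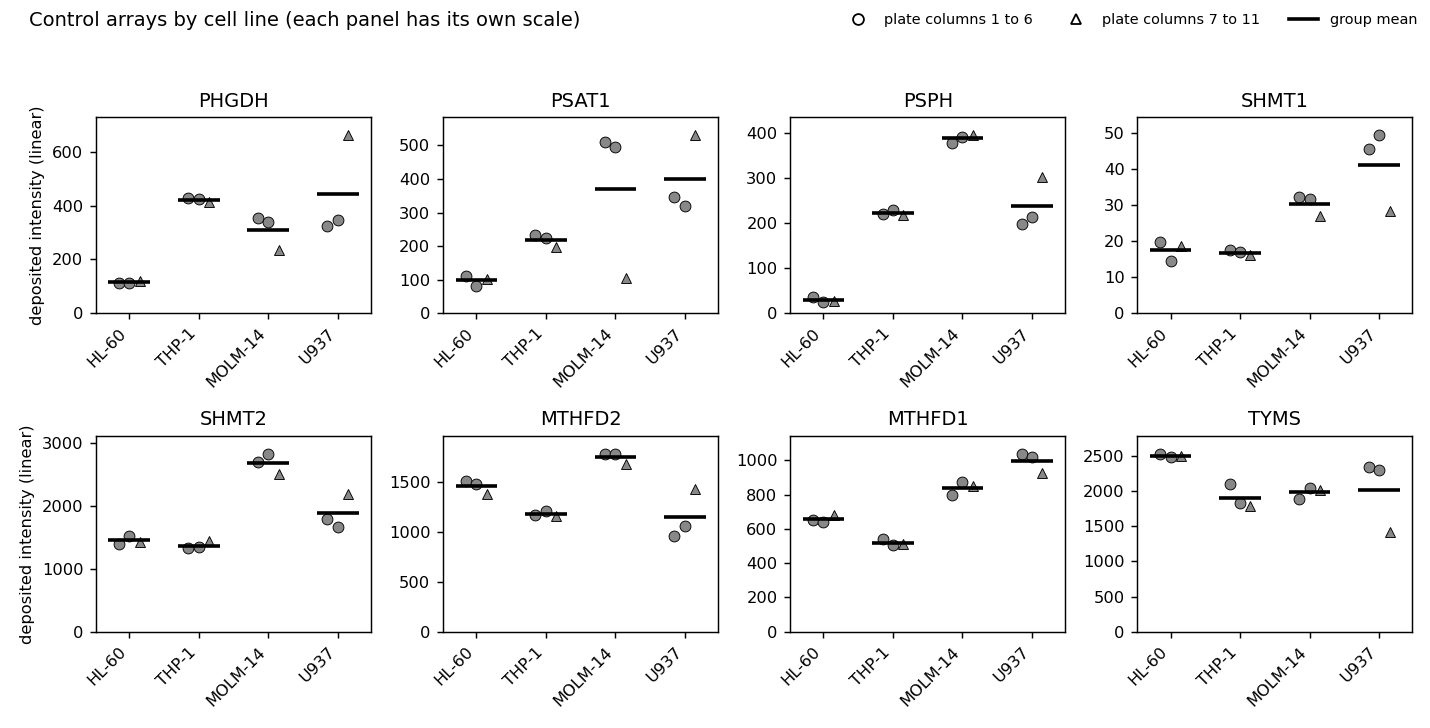
Deposited intensity (linear scale, a separate scale in each panel) of the 8 genes in the 3 control arrays of each cell line, with circles for plate columns 1 to 6, triangles for columns 7 to 11 and bars for means. HL-60 lies lowest for PHGDH, PSAT1 and PSPH, and MOLM-14 highest for PSPH, SHMT2 and MTHFD2.

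Genes next to the pathway were taken from lists of folate, purine, methionine, transport, ATF4 and S phase genes. These lists were chosen with earlier results of these data known, so their p-values with the GSK3A hairpins are not independent of that choice. The counts and examples for that contrast are a description. With the GSK3A hairpins, 9 of 15 purine and thymidylate synthesis genes fell (limma, adjusted p under 0.05 over all genes, where 10.2% of all genes fell and 10.9% rose), and their median difference was -0.17, against 0.00 for all genes. The deepest falls were in PAICS (-0.50 ± 0.04, adjusted p = 6.92e-10), PFAS (-0.37 ± 0.03, adjusted p = 2e-09) and GART (-0.34 ± 0.03, adjusted p = 4.27e-09), enzymes of the purine ring, of which GART uses the folate carbon directly. PAICS differed by 0.67 and IMPDH1 by 0.60 between shGSK3A_5 and shGSK3A_6 (adjusted p = 2.28e-10 and 6.6e-11), and against control PAICS was at -0.16 with shGSK3A_5 and -0.83 with shGSK3A_6. By line the median of these 15 genes was -0.39 in MOLM-14, -0.18 in HL-60, -0.10 in U937 and 0.04 in THP-1. Of 17 other folate genes, 3 fell: GCSH, a subunit of the glycine cleavage system, by 0.31, and MTRR and MTR of methionine synthesis by 0.24 and 0.16 (adjusted p = 9.02e-08, 2.94e-05 and 0.0224). Of 11 genes on the list for the methionine cycle and transsulfuration, AHCYL1 (-0.42) and SRM (-0.14) fell and MAT2B (0.10) rose. Of 8 serine and glycine transporters, SLC1A5 fell by 0.33 and the mitochondrial serine carrier SFXN3 rose by 0.24, counts near the shares of all genes. Taken alone, shGSK3A_5 gave 1 rise and 1 fall among these 8 (10.6% of all genes fell), and shGSK3A_6 gave 0 of either (7.88% fell). The share of all genes that rose with either hairpin alone is not given here, so nothing is read from the rises. Of the S phase genes 20 of 23 fell, with a median of -0.29, and MCM4 (-0.55), CDC6 (-0.53) and CCNE1 (-0.50) led them. Taken alone, shGSK3A_5 gave 20 falls and a median of -0.37 (10.6% of all genes fell), and shGSK3A_6 gave 11 and -0.21 (7.88%).

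Of 25 genes of the ATF4 response measured, 1 rose and 1 fell with the GSK3A hairpins, against 10.9% and 10.2% of all genes, and the median was 0.02. They were the cystine transporter SLC7A11 (0.34) and the amino acid transporter SLC7A5 (-0.34; limma, adjusted p = 0.00423 and 0.000588). Both values average hairpins that differed, by 0.61 for SLC7A11 and 0.97 for SLC7A5 (shGSK3A_5 minus shGSK3A_6). SLC7A5 thus lay above control with shGSK3A_5 and below it with shGSK3A_6. Over the 25 genes, shGSK3A_5 alone gave a median of 0.07, with 4 rises and 1 fall (10.6% of all genes fell). With shGSK3A_6 alone the median was -0.08, with 0 rises and 2 falls (7.88% of all genes fell). The share of all genes that rose with either hairpin alone is not given here, so nothing is read from the counts of rises. By line the median of the 25 with both hairpins was -0.27 in MOLM-14 and 0.20 in THP-1, with -0.03 in HL-60 and 0.05 in U937. Between the GSK3A hairpins, where MTHFD2 was lower with shGSK3A_5, 7 of the 25 were higher with it (8.61% of all genes were), led by SLC7A5 at 0.97, SLC7A11 at 0.61 and TRIB3 at 0.58, and AARS1 was lower, at -0.54. Of the 8 myeloid markers measured, 4 rose with the GSK3A hairpins, namely TYROBP (0.59), FCER1G (0.59), ITGB2 (0.45) and PTPRC (0.40), and MPO fell (-0.39), against 10.9% and 10.2% of all genes, with a median of 0.24. Their summed intensity was 4628 to 5550 with GSK3A hairpins against 3822 to 4179 in control in U937, 7435 to 8069 against 6798 to 7043 in THP-1, 4245 to 6526 against 4082 to 4187 in MOLM-14, and 9521 to 10402 against 9689.6 to 10258 in HL-60. Their part in the values of MTHFD2 was not tested.

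With the GSK3B hairpins, GCSH fell by 0.17, MTRR by 0.16, GART by 0.13 and CDC6 by 0.37 (limma, adjusted p = 0.00211, 0.0134, 0.0122 and 0.0399), where 1.55% of all genes fell. Between the GSK3B hairpins, 4 of the 15 purine and thymidylate genes were higher with shGSK3B_2 and 1 was lower. Of the S phase genes 3 of 23 were higher and 0 lower, and of the myeloid markers 0 of 8 were higher and 4 lower. Among all genes 5.72% were higher and 5.27% lower. GART, PFAS and PPAT were higher with shGSK3B_2, by 0.19, 0.19 and 0.18, and RRM2 was lower by 0.70 (limma, adjusted p = 0.00156, 0.00304, 0.00476 and 0.00138).

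**Figure D5:**
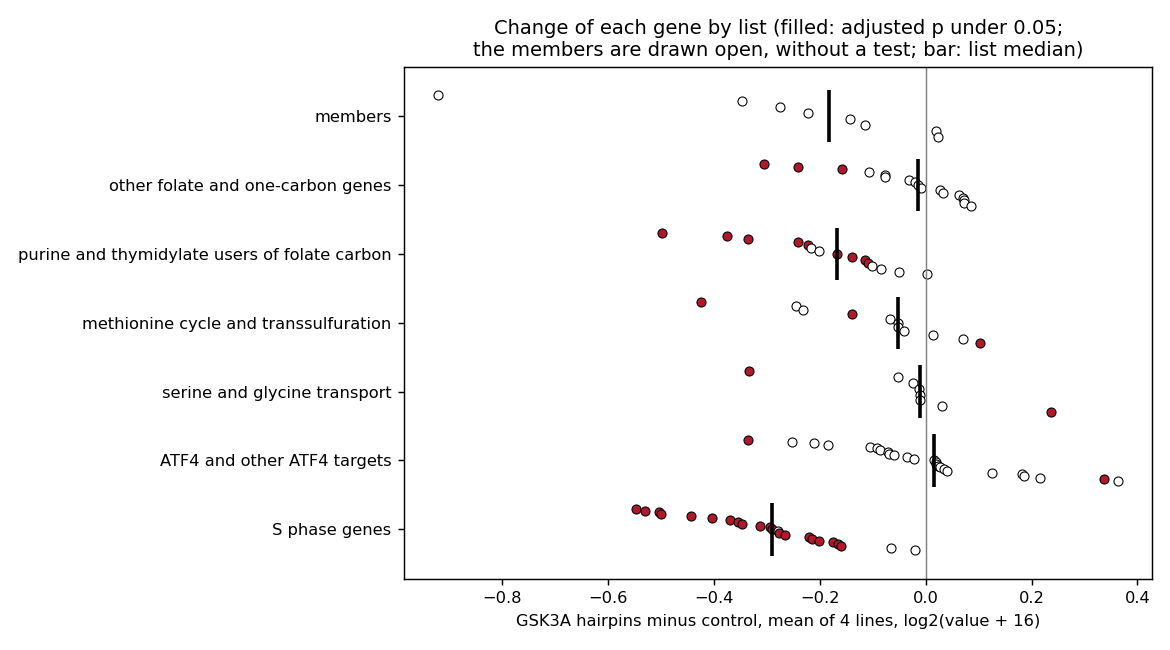
Difference of each gene between GSK3A hairpins and shControl, averaged over the 4 lines on the log2(value + 16) scale, by gene list; filled points passed the limma test at an adjusted p under 0.05, open points did not, the 8 chosen genes are drawn open because they are not tested, and bars are list medians. MTHFD2 at -0.92 lies farthest left, and 20 of 23 S phase genes are filled on the left of 0. The lists were chosen with earlier results of these data known, so the filled points are a description.

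The genes whose pattern was most like that of MTHFD2 were found by Pearson correlation over the 44 arrays after subtracting each line's mean, among 5793 genes bright enough to rank. They were BCL2 (r = 0.87), the survival gene of the mitochondrial membrane, CD302 (0.85), CPT1A (0.84), the carnitine transferase of fatty acid oxidation, DHTKD1 (0.83) and NHLRC2 (0.83). The most opposed were GALNT7 (-0.83), TSPYL4 (-0.83) and LMNA (-0.81). Of the members, MTHFD1 came nearest, at r = 0.57, with 280 of 5800 genes above it, and PHGDH (0.44), PSAT1 (0.42), SHMT2 (0.33), TYMS (0.26), SHMT1 (0.15) and PSPH (0.13) followed. Within MOLM-14 (11 arrays) the members ran with MTHFD2 more closely, with r = 0.95 for PHGDH, 0.85 for SHMT2 and 0.83 for TYMS, whereas in HL-60 TYMS had r = -0.75 and PHGDH -0.61. The arrays fall into hairpin groups and plate columns that all genes share, so these values are descriptions.

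The probe sets ending in _s_at, which read SHMT2, PSAT1, PSPH and SHMT1 here, can match more than 1 transcript, so those genes are less certain than the rest. The second probe set of PSPH also had HL-60 lowest, with a control mean of 60.9, against 110 to 232 in the other lines. The second probe sets of SHMT1 and TYMS were dim, at 7.20 to 12.2 and 9.17 to 19.1, and carry no comparison.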

How the data were processed

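RNA of 44 cultures was hybridized to Affymetrix high-throughput human expression arrays. The authors deposited 1 linear intensity per probe set and array, for 22277 probe sets; the submitters' processing notes name RMA and MAS5, and which of them gave the table, with versions and settings, is not given in the sources used here. Array medians ran from 18.953 to 22.884, and the number of arrays limits the precision.

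Intensities were turned into log2(value + 16) and quantile-normalized, because the array medians spanned 0.154 on that scale, and the brightest probe set of each gene was kept (12165 genes). A fold change is therefore on the log2(value + 16) scale, which understates changes of dim genes. Symbols came from the platform annotation through Entrez identifiers. The means of 20 groups (line and hairpin) entered a linear model (limma 3.58.1, R 4.3.3) with 24 residual degrees of freedom, and p-values are two-sided and Benjamini-Hochberg adjusted over all genes with a threshold of 0.05. The fit was tested on simulated data. Differences between lines are moderated F-tests, and fits within plate columns use line and target means, or line plus hairpin for differences between hairpins. The p-values measure the spread between replicate arrays of a group, which includes the split between plate columns. A planned F-test of the members' GSK3A difference between lines is not reported, because its values come from the contrast that chose them. The members and lists were chosen with earlier results of these data known.

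Other named genes are, per list and contrast, up to 3 rising and 3 falling with the largest change past the threshold, the 5 genes most like MTHFD2 and the 3 most opposed, and GSK3A and GSK3B.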

Additional observations from a re-analysis of the deposited data

Results flagged for a closer look

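In THP-1 PHGDH, the shGSK3B_1 replicate 1 array read 435 while the other 3 GSK3B arrays read 472 to 475, a gap of 0.957 of the whole range of the 4 arrays. It was the 1 such array in 64 groups of 4 examined, where chance gives about 1 in 20.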

How the results depend on the processing

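The MTHFD2 difference with GSK3A hairpins ran from -1.05 to -0.81 over 16 alternatives, and no member passed with the GSK3B hairpins in any of them. Of 8 members, the number that differed between GSK3A hairpins was 1; it was 2 with the plate columns as a block, 0 with cyclic loess, in columns 1 to 6 or 7 to 11 alone, or without HL-60 or THP-1, and 0 to 2 with single arrays left out. The 10 single arrays without which MTHFD2 lost that call (adjusted p 0.052 to 0.119) were HL-60 shGSK3A_5 replicate 2 and shGSK3A_6 replicate 1, all 4 GSK3A arrays of THP-1, MOLM-14 shGSK3A_5 replicate 1 and shGSK3A_6 replicate 2, and U937 shGSK3A_5 replicate 1 and shGSK3A_6 replicate 2. The number that differed between GSK3B hairpins was 1; it was 2 with the plate columns as a block or without U937 and 0 in columns 1 to 6 or 7 to 11 alone. The count of members that differed in control level was 7; it was 6 to 8 over 11 alternatives and 6 or 7 with single arrays left out. The cause of these changes was not tested.

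Arrays with the same replicate number deviated together in MOLM-14 (median r = 0.61 over 10 pairs) and U937 (0.76) but not in HL-60 (0.06) or THP-1 (0.02), so the numbers were not taken as pairs. With a replicate block within lines, 2 members differed between GSK3A hairpins, 2 differed between GSK3B hairpins, and the MTHFD2 difference was -0.89.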
